A study of Homo sapiens with 6 samples.

Results

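The SOXC transcription factors are SOX4, SOX11 and SOX12, the 3 members of group C of the SRY-related HMG box family. They were taken by gene symbol from a table of 60843 genes measured by RNA sequencing in 6 libraries, and all 3 were among the 16327 genes with enough counts to be tested. Each SOXC protein binds DNA through its HMG box and activates transcription through a domain at its C-terminal end. In mouse embryos SOX4 and SOX11 are needed for the survival of neural and mesenchymal progenitors and for the expression of neuronal genes in young neurons, partly together with POU domain factors, while SOX12 is the weaker activator. In human cells SOX4 is also known as a gene that TGF-beta signalling turns on.

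The cells were BJ, an established line of human foreskin fibroblasts with a wild-type genotype, grown on dishes coated with poly-D-lysine, and by its title the series follows their chemical conversion into cells named FiNs. Day 0 cells were in DMEM with 10% fetal bovine serum. Day 2 cells had been in neuronal induction medium with 10 µM forskolin, an activator of adenylyl cyclase, and day 5 cells had in addition been in neuronal maturation medium with 10 µM forskolin since day 2. Each day had 2 libraries. Time, medium, serum and drug changed together after day 0 and cannot be told apart, since no cells kept in the new media without the drug were analysed here. The labels call day 0 fibroblasts and both later days induced neuron cells. Whether both libraries of a day stem from separate cultures is not stated, so the p-values rest on a spread between libraries that may be technical alone.

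All 3 members are protein-coding genes of 1 exon on the plus strand (GRCh38, GENCODE 29). SOX4 (ENSG00000124766) lies at chr6:21592768-21598619, with 1422 coding bases at 21594535 to 21595956, a 5′ UTR of 1767 bases and a 3′ UTR of 2663 bases. SOX11 (ENSG00000176887) lies at chr2:5692667-5701385, with 1323 coding bases, a 5′ UTR of 55 bases and a 3′ UTR of 7341 bases. SOX12 (ENSG00000177732) lies at chr20:325595-330224, with 945 coding bases, a 5′ UTR of 330 bases and a 3′ UTR of 3355 bases. The coding sequences were 75.1% identical between SOX12 and SOX4, 78.0% between SOX12 and SOX11 and 72.4% between SOX4 and SOX11, over 941, 918 and 1233 aligned bases.

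The coding sequences are most alike within the HMG box, where a sequencing read could be taken for one of another member. Across the whole transcripts the longest exact run was 27 bases between SOX4 and SOX11, 33 bases between SOX12 and SOX4 and 35 bases between SOX12 and SOX11, each inside both coding sequences. A longer stretch therefore belonged to 1 member of the 3, though the read length was not given in the sources used here. Windows of 50 bases that also occur in a transcript of another gene made up 2.09% of SOX4, from the antisense gene AL512380.2, 0.288% of SOX11, from the overlapping gene AC108025.2, and 0% of SOX12. These overlapping genes had at most 2 counts and at most 5 counts in any library, against at least 2509 counts for SOX4 and at least 262 for SOX11.

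SOX4 rose at each step and was the most abundant member on every day. It had 2509 and 2790 counts on day 0, 4849 and 5301 on day 2, and 7018 and 7647 on day 5. Scaled with TMM factors to counts of equal library size (CPM), this was 98.97 and 95.9 on day 0, 201.9 and 197.2 on day 2, and 420.9 and 417.5 on day 5. The libraries of a day lay close together and no 2 days overlapped. SOX4 averaged 199.6 ± 3.33 CPM on day 2 against 97.4 ± 2.18 CPM on day 0 (SD, n = 2 each), a 2.05-fold increase, with a log2 fold change of 1.04 ± 0.03 (SE) and an edgeR quasi-likelihood adjusted p of 1.3e-14. On day 5 it averaged 419 ± 2.42 CPM (SD, n = 2), 4.30-fold above day 0 (log2 fold change 2.11 ± 0.03, edgeR adjusted p = 2.7e-19). Between the later days SOX4 rose 2.10-fold on day 5 against day 2 (log2 fold change 1.07 ± 0.03, edgeR adjusted p = 1.9e-15).

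SOX11 was the least abundant member and rose mainly after day 2. Its counts were 262 and 263 on day 0, 309 and 309 on day 2, and 365 and 424 on day 5. The levels were 10.3 and 9.04 CPM on day 0, 12.9 and 11.5 CPM on day 2, and 21.9 and 23.1 CPM on day 5. Both day 5 libraries stood well above the rest, while the lower day 2 library was close to the higher day 0 library. SOX11 averaged 12.2 ± 0.970 CPM on day 2 and 9.69 ± 0.917 CPM on day 0 (SD, n = 2 each), a log2 fold change of 0.33 ± 0.11 with an edgeR adjusted p of 0.015. This call depended on the scaling and on single libraries: the log2 fold change was 0.15 with library totals (edgeR adjusted p = 0.261), 0.23 without day 0 replicate 2 (edgeR adjusted p = 0.162) and 0.25 without day 2 replicate 1 (edgeR adjusted p = 0.128), and the adjusted p ran between 0.0147 and 0.419 in all alternatives. On day 5 SOX11 averaged 22.5 ± 0.889 CPM (SD, n = 2), 2.33-fold above day 0 (edgeR adjusted p = 2.6e-08, log2 fold change 1.22 ± 0.11) and 1.85-fold above day 2 (0.89 ± 0.11, edgeR adjusted p = 1.3e-06).

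SOX12 took a different course, lower on day 2 and highest on day 5. Its counts were 1116 and 1486 on day 0, 881 and 998 on day 2, and 1181 and 1291 on day 5. The levels were 44.0 and 51.1 CPM on day 0, 36.7 and 37.1 CPM on day 2, and 70.8 and 70.5 CPM on day 5. The 3 days did not overlap, and the day 0 libraries were the furthest apart. On day 2 SOX12 averaged 36.9 ± 0.313 CPM, 1.29-fold lower than the 47.5 ± 4.98 CPM of day 0 (SD, n = 2 each; log2 fold change -0.37 ± 0.07, edgeR adjusted p = 9.5e-05). On day 5 it averaged 70.7 ± 0.247 CPM (SD, n = 2), 1.48-fold above day 0 (edgeR adjusted p = 4.2e-07, log2 fold change 0.57 ± 0.06) and 1.91-fold above day 2 (0.94 ± 0.07, edgeR adjusted p = 1.2e-09). In RNA from bulk cultures, fewer cells that express a gene and less of its RNA per cell cannot be told apart.

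**Figure D1:**
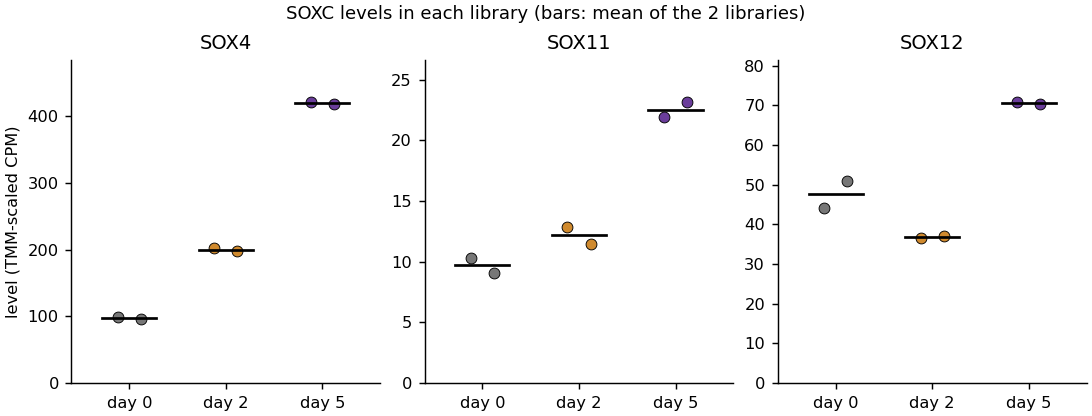
Level of SOX4, SOX11 and SOX12 in TMM-scaled CPM on day 0, day 2 and day 5, with 1 point per library, bars at the mean of the 2 libraries of a day, and an axis of its own for each gene that starts at 0. SOX4 steps up at both later days, SOX11 sits highest on day 5 with 21.9 and 23.1 CPM, and SOX12 dips on day 2 with 36.7 and 37.1 CPM.

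Many genes changed between these days, so the calls on 3 genes have to be read against that background. On day 2 against day 0, 2 of 3 members were called higher, as were 33.4% of all tested genes, and 1 was called lower, again as were 33.4% of all genes. On day 5 against day 0 all 3 members were called higher, against 35.8% of all genes, and on day 5 against day 2 all 3 were called higher, against 32.1% of all genes. The 2 comparisons with day 0 share the day 0 libraries, so their calls are not independent.

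The sizes of the changes separate the members further. The SOX4 log2 fold change was above that of 87.2% of tested genes on day 2 against day 0, 94.3% on day 5 against day 0 and 87.9% on day 5 against day 2. The same shares were 65.8%, 86.9% and 84.6% for SOX11, and 31.2%, 71.7% and 85.6% for SOX12. Against a change of 2-fold, tested with glmTreat in edgeR, 0 of 3 members passed as higher on day 2 against day 0, where 6.99% of genes did, and SOX4 came closest with an adjusted p of 0.28. On day 5 against day 0, SOX4 (glmTreat adjusted p = 2.6e-16) and SOX11 (glmTreat adjusted p = 0.041) passed, as did 9.74% of genes, and SOX12 had an adjusted p of 1. Between the later days SOX4 alone of the members passed, higher on day 5 than on day 2 (glmTreat adjusted p = 0.023), as did 6.41% of genes. The SOX11 call above 2-fold on day 5 and that of SOX4 on day 5 against day 2 lie near the threshold. Over the alternatives the adjusted p ran between 0.0283 and 0.685 for SOX11 and between 0.00311 and 0.392 for SOX4.

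**Figure D2:**
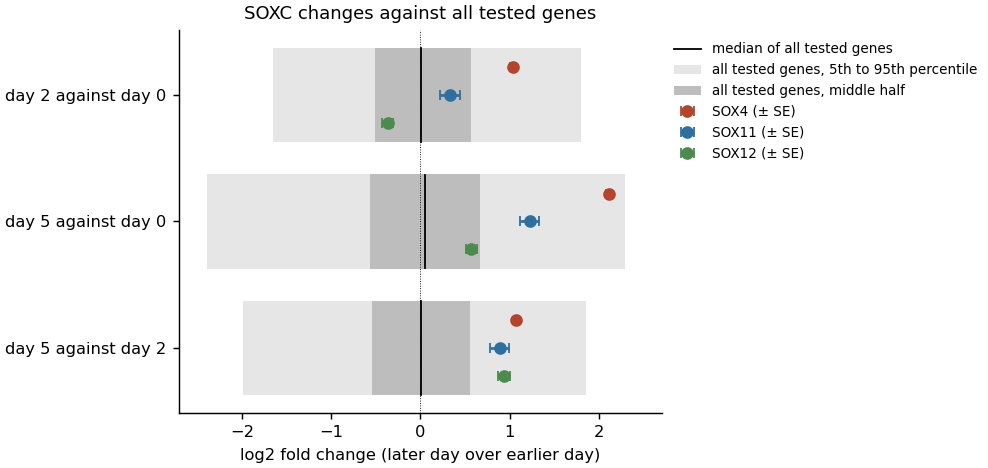
Log2 fold change of SOX4, SOX11 and SOX12 (points, with bars of 1 SE) in the 3 comparisons, later day over earlier day, set on grey bands of all 16327 tested genes (dark, the interquartile range; light, the wider percentile range given in the legend). SOX4 lies right of the dark band in each comparison and inside the light one, and SOX12 is left of 0 only on day 2 against day 0.

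Per length of exon, the members can be compared with each other. SOX4 stood at 16.6 ± 0.373 CPM per kb on day 0, 34.1 ± 0.569 on day 2 and 71.6 ± 0.414 on day 5 (SD, n = 2 each). SOX12 stood at 10.3 CPM per kb on day 0, 7.97 on day 2 and 15.3 on day 5, and SOX11 at 1.11, 1.40 and 2.58. On this scale SOX4 was above 85.2% of the genes with a known length on day 0, 92.9% on day 2 and 97.4% on day 5. SOX12 was above 77.1%, 72.3% and 85.2% of them on the same days, and SOX11 above 32.7%, 35.9% and 47.0%.

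The makeup of the family shifted towards SOX4, mostly by day 2. The summed SOXC level was 27.6 and 28.5 CPM per kb on day 0, 43.9 and 43.0 on day 2, and 89.7 and 89.2 on day 5. SOX4 made up 61.3% and 57.6% of it on day 0, 78.6% and 78.3% on day 2, and 80.2% and 80.0% on day 5. The SOX12 share was 34.4% and 38.8% on day 0, 18.0% and 18.6% on day 2, and 17.0% and 17.1% on day 5. SOX11 held between 2.80% and 4.29% in every library. All later libraries had a higher SOX4 share than both day 0 libraries, but with 2 libraries against 2 an exact permutation test cannot give a p below 0.333.

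Ratios within a library carry no scaling between libraries. Per kb there were 14.3 and 15.8 SOX4 for each SOX11 on day 0, 23.4 and 25.6 on day 2, and 28.6 and 26.9 on day 5. On the log2 scale the ratio was 3.91 ± 0.10 on day 0, 4.61 ± 0.09 on day 2 and 4.79 ± 0.07 on day 5 (SD, n = 2 each). For each SOX4 there were 0.562 and 0.673 SOX12 on day 0, 0.230 and 0.238 on day 2, and 0.213 and 0.213 on day 5, a log2 ratio of -0.70 ± 0.18, -2.10 ± 0.04 and -2.23 ± 0.0033 on those days (SD, n = 2 each). The fall in SOX12 relative to SOX4 between day 0 and day 2 was larger than the spread between libraries, and the further difference on day 5 was small beside it.

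**Figure D3:**
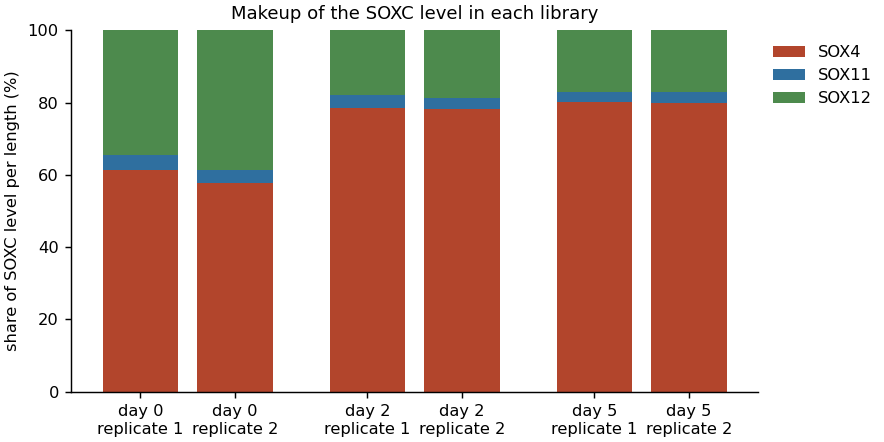
Share of the summed SOXC level per length held by SOX4, SOX11 and SOX12 in each of the 6 libraries, in percent, as stacked bars. SOX4 holds 57.6 to 61.3% in the day 0 libraries and 78.3 to 80.2% in the later ones, while SOX11 is a thin band throughout.

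Among the SOX genes, SOXC took a growing part. The 3 members held 62.9% and 63.0% of the summed level per length of 19 SOX genes on day 0, 79.7% and 78.7% on day 2, and 84.1% and 85.0% on day 5. On day 0 the order was SOX4, then SOX9 at 13.1 CPM per kb, SOX12 and SOX11, and the ranges of SOX11 and of the next gene, SOX6, overlapped. On day 2 and on day 5 it was SOX4, SOX12, SOX9 and SOX11, with no overlap between these neighbours in either order, SOX9 being at 7.16 CPM per kb on day 2 and 11.8 on day 5. SOX9, a SOXE factor of cartilage and many progenitors, thus fell behind SOX12 after day 0. SOX9 fell on day 2 to 28.2 ± 1.09 CPM, against 51.7 ± 0.114 CPM on day 0 (SD, n = 2 each; log2 fold change -0.87 ± 0.07, edgeR adjusted p = 3.2e-09), and was 46.3 ± 4.33 CPM on day 5 (SD, n = 2; -0.16 ± 0.07 against day 0, edgeR adjusted p = 0.037).

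Of the 16 SOX genes outside SOXC that were listed, 6 had enough counts to be tested and 5 had 0 counts in every library, namely SOX1, SOX3, SOX14, SOX17 and SOX21. SOX2, the factor of neural progenitors, had at most 2 counts in any library, and SOX10, the factor of neural crest and glia, likewise at most 2. On day 2 against day 0, 3 of the 6 tested genes rose and 2 fell, and on day 5 against day 0 again 3 rose and 2 fell, shares not far from those over all genes (33.4% higher and 33.4% lower on day 2, 35.8% and 34.1% on day 5). The SOXD genes moved apart, with SOX5 up on day 2 against day 0 (log2 fold change 1.17, edgeR adjusted p = 1.4e-06), SOX13 up likewise (0.97, edgeR adjusted p = 1.5e-05) and SOX6 down (-0.45, edgeR adjusted p = 0.00056). SOX8 rose from a low level, with 22 and 19 counts on day 2 against 3 and 3 on day 0 (log2 fold change 2.82, edgeR adjusted p = 0.001).

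**Figure D4:**
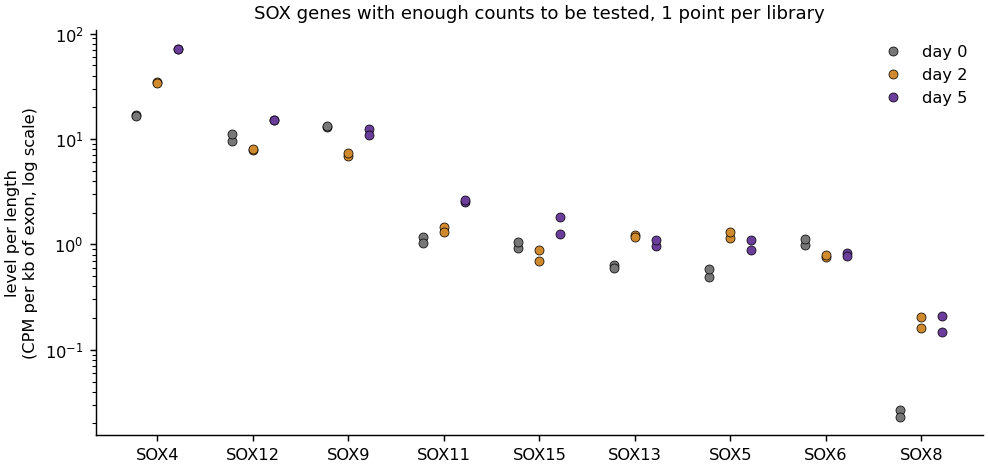
Level per length, in CPM per kb of exon on a log axis, of the 9 SOX genes with enough counts to be tested, with 1 point per library and the days side by side. SOX4 is the highest on every day and moves away from SOX9 and SOX12, which lie between 7.0 and 15.3 CPM per kb, while SOX11 sits between 1.04 and 2.65.

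The POU factors of neural tissue that act with SOX4 and SOX11 were not detected. POU3F1, POU3F2, POU3F3 and POU3F4 had 0 counts in all 6 libraries, where a floor of 3 counts corresponds to between 0.103 and 0.180 CPM. Of the other listed POU factors, POU2F1 (OCT1), present in most cell types, was 16.7 ± 1.00 CPM on day 2 against 7.42 ± 0.0992 CPM on day 0 (SD, n = 2 each; log2 fold change 1.17 ± 0.11, edgeR adjusted p = 3.5e-08). It stayed near that level on day 5, at 17.5 ± 0.231 CPM (SD, n = 2). POU6F1 was also higher on day 2 than on day 0 (edgeR adjusted p = 9.2e-07, log2 fold change 1.00 ± 0.12) and on day 5 than on day 0 (0.63 ± 0.13, edgeR adjusted p = 0.00025).

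Genes described or proposed as SOXC targets, mostly in mouse, moved in both directions. Of 14 listed genes 11 were tested. On day 2 against day 0, 3 were higher, 7 lower and 1 not called, with a median log2 fold change of -0.15 beside 0.0030 for all tested genes (33.4% higher and 33.4% lower). On day 5 against day 0 the counts were the same, 3 higher, 7 lower and 1 not called, with a median of -0.42 beside 0.04 for all genes (35.8% higher and 34.1% lower). On day 5 against day 2, 4 were higher and 7 lower, with a median of -0.68 beside 0.0066 for all genes (32.1% higher and 33.7% lower).

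Of the targets that mark neurons, TUBB3 and MAP2 fell. TUBB3, the neuronal beta-tubulin, had 223 and 229 CPM on day 0, 136.6 and 142.9 CPM on day 2, and 87.2 and 87.7 CPM on day 5. Its log2 fold change was -0.69 ± 0.03 on day 2 against day 0 (edgeR adjusted p = 8.7e-12) and -1.37 ± 0.04 on day 5 against day 0 (edgeR adjusted p = 1.6e-15). MAP2, a microtubule protein of dendrites, had 11.8 and 14.2 CPM on day 0, 4.0 and 4.87 CPM on day 2, and 0.360 and 1.31 CPM on day 5. Its log2 fold change on day 5 against day 0 was -3.92 ± 0.28 (edgeR adjusted p = 1.4e-09), and its day 5 value rests on 6 and 24 counts. DCX, the microtubule protein of migrating neurons, had 1 count in 1 library of day 2 and 1 count in 1 library of day 5, and STMN2 had 0 counts in every library.

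The other targets went in both directions. TEAD2, a partner of the Hippo pathway coactivators and a SOXC target in mouse, had 51.7 and 53.5 CPM on day 0, 46.1 and 49.6 CPM on day 2, and 139.2 and 133.9 CPM on day 5. It was slightly lower on day 2 than on day 0 (edgeR adjusted p = 0.03, log2 fold change -0.14 ± 0.05) and rose on day 5 against day 0 (1.38 ± 0.05, edgeR adjusted p = 5.3e-14). DICER1, the nuclease that makes mature microRNAs, was highest on day 2, with 71.3 ± 5.23 CPM against 17.5 ± 1.42 CPM on day 0 (SD, n = 2 each; log2 fold change 2.03 ± 0.07, edgeR adjusted p = 1.1e-13). SEMA3C, a secreted guidance factor, did likewise, with 57.5 ± 2.68 CPM on day 2 against 15.01 ± 1.98 CPM on day 0 (SD, n = 2 each; log2 fold change 1.94 ± 0.08, edgeR adjusted p = 1.1e-12), and was 17.3 ± 0.672 CPM on day 5. EZH2, the histone H3K27 methyltransferase, was higher on day 5 than on day 0 (log2 fold change 0.78, edgeR adjusted p = 0.0053). GDF5, DBN1 and STMN1 were lower on both later days than on day 0. Their log2 fold changes on day 2 were -3.35, -0.75 and -0.12 (edgeR adjusted p = 3.1e-08, 3.1e-14 and 0.0054). On day 5 these were -1.09, -0.42 and -0.36 (edgeR adjusted p = 0.00097, 8.3e-11 and 1.3e-07). The day 2 value of GDF5 rests on 8 and 18 counts. WNT5B, a secreted WNT ligand, and KLF6, a zinc finger factor, were lower on day 5 than on day 0, with log2 fold changes of -1.37 (edgeR adjusted p = 9.2e-13) and -1.79 (edgeR adjusted p = 1.7e-16), although KLF6 was higher on day 2 than on day 0 (0.40, edgeR adjusted p = 1e-08).

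Proteins that bind SOX4 or act on it were measured as a list of 11 tested genes. On day 2 against day 0, 4 were higher, 4 lower and 3 not called, with a median log2 fold change of -0.01 beside 0.0030 for all genes (33.4% higher and 33.4% lower), and with library totals 7 were lower. On day 5 against day 0, 8 were higher, 1 lower and 2 not called, with a median of 0.43 beside 0.04 for all genes (35.8% higher and 34.1% lower), and with library totals 6 were higher and 3 lower. SDCBP, the scaffold syntenin that stabilises SOX4 protein in human cells, had 156.2 and 153.2 CPM on day 0, 415.6 and 409.3 CPM on day 2, and 246.7 and 231.6 CPM on day 5. It was highest on day 2 (log2 fold change 1.41 ± 0.03 against day 0, edgeR adjusted p = 1.5e-16), unlike SOX4, which was highest on day 5. Of the beta-catenin pathway, LEF1, a DNA-binding partner of beta-catenin, was 23.7 ± 0.0785 CPM on day 5 against 6.77 ± 0.581 CPM on day 0 (SD, n = 2 each; log2 fold change 1.81 ± 0.11, edgeR adjusted p = 1e-10). JUP, the junction protein plakoglobin, was 517.7 ± 9.10 CPM on day 5 against 173.7 ± 8.63 CPM on day 0 (SD, n = 2 each; log2 fold change 1.57 ± 0.03, edgeR adjusted p = 4.5e-17). HDAC1, a histone deacetylase, was the listed gene that was lower on day 5 than on day 0 (log2 fold change -0.45 ± 0.05, edgeR adjusted p = 6.5e-07).

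**Figure D5:**
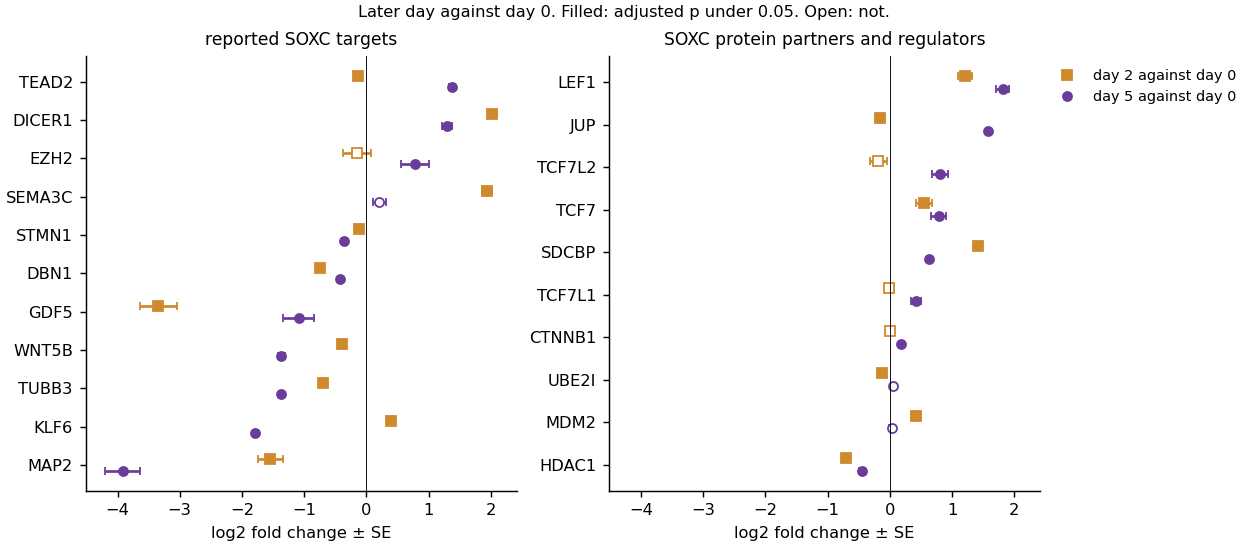
Log2 fold change on day 2 and on day 5, each against day 0, of the tested genes of the target list (left) and of 10 genes of the partner list (right), filled where the edgeR adjusted p was under 0.05. MAP2 lies furthest to the left on day 5, at -3.92, and in the partner list LEF1 lies furthest to the right, at 1.81.

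The TGF-beta pathway, an inducer of SOX4 in other human cells, changed in both directions. Of 15 tested genes, 8 were higher and 5 lower on day 2 against day 0, and 8 higher and 6 lower on day 5 against day 0, with median log2 fold changes of 0.30 and 0.23. Over all tested genes 33.4% were higher and 33.4% lower on day 2 (median 0.0030), and 35.8% higher and 34.1% lower on day 5 (median 0.04). With library totals these counts were 7 and 6 on day 2, and 7 and 7 on day 5. Among the ligands, TGFB3 was 39.1 ± 0.391 CPM on day 5 against 1.06 ± 0.233 CPM on day 0 (SD, n = 2 each; log2 fold change 5.22 ± 0.16, edgeR adjusted p = 6.6e-15), while its log2 fold change on day 2 did not pass the test (0.02 ± 0.27, edgeR adjusted p = 0.95). TGFB1 rose on both later days, by a log2 fold change of 0.39 on day 2 (edgeR adjusted p = 1.2e-06) and 1.13 on day 5 (edgeR adjusted p = 5.7e-13), each against day 0.

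The receptors went apart. TGFBR3, the coreceptor betaglycan, rose on day 5 against day 0 (edgeR adjusted p = 5.6e-17, log2 fold change 3.39 ± 0.07), and TGFBR2, the ligand-binding receptor kinase, fell (-1.25 ± 0.03, edgeR adjusted p = 4.3e-16). LTBP1, which holds latent TGF-beta in the matrix, had 806 and 790 CPM on day 0, 1586 and 1598 CPM on day 2, and 2033 and 2039 CPM on day 5. It rose on both later days, with log2 fold changes of 1.00 ± 0.02 on day 2 (edgeR adjusted p = 4.8e-18) and 1.35 ± 0.02 on day 5 (edgeR adjusted p = 3.7e-20), each against day 0.

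Next to SOX4, the long noncoding RNA gene CASC15 (chr6:21664772-22368328, plus strand, GRCh38), which starts 72.0 kb from the SOX4 start, was the tested neighbour within 500 kb. It had 17 and 18 counts on day 0, 77 and 91 on day 2, and 264 and 299 on day 5, or 0.645 ± 0.0368, 3.30 ± 0.127 and 16.1 ± 0.347 CPM (SD, n = 2 each). Like SOX4 it rose at both steps, and by more. The log2 fold change was 2.35 ± 0.23 on day 2 against day 0 (edgeR adjusted p = 8.7e-08) and 4.63 ± 0.20 on day 5 against day 0 (edgeR adjusted p = 9.1e-13). Of the 8 neighbours of SOX4 in this window, 5 had 0 counts in every library. SOX11 had 9 neighbours, of which 7 had 0 counts and 0 could be tested.

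SOX12 lies in a denser region, with 21 neighbours, of which 9 were tested. Of these, 4 were higher and 4 lower on day 2 against day 0, and 5 higher and 4 lower on day 5 against day 0, beside 33.4% higher and 33.4% lower over all genes on day 2 and 35.8% and 34.1% on day 5. On day 5 against day 2, where SOX12 rose 1.91-fold, 6 were higher and 2 lower, beside 32.1% and 33.7% over all genes. C20orf96 and TBC1D20 were, like SOX12, lower on day 2 and higher on day 5, each against day 0, with log2 fold changes of -0.49 and 1.12 for C20orf96 (edgeR adjusted p = 0.0056 and 6.7e-07) and -0.14 and 0.35 for TBC1D20 (edgeR adjusted p = 0.01 and 2.4e-06). ZCCHC3 and TRIB3 were higher on day 5 than on day 0 (log2 fold changes 1.16 and 0.96), and RBCK1 was lower on both later days (-0.71 and -0.74). CSNK2A1 and SRXN1 went the opposite way to SOX12, higher on day 2 (0.61 and 0.50) and lower on day 5 (-0.17 and -1.77), each against day 0. NRSN2, a neuronal vesicle membrane gene, was lower than on day 0 on both later days (-0.67 on day 2, edgeR adjusted p = 3.2e-09, and -0.20 on day 5, edgeR adjusted p = 0.0026). The antisense gene NRSN2-AS1 spans all 4630 bases of SOX12 on the other strand, with 0 shared exon bases. It had 82 to 137 counts in a library, and without a stated strand setting its intron reads cannot be told apart from SOX12. NRSN2-AS1 was higher on day 2 than on day 0 (log2 fold change 0.49, edgeR adjusted p = 0.028). With library totals this was not called (0.31, edgeR adjusted p = 0.16). On day 5 it was again higher than on day 0 (1.29, edgeR adjusted p = 8e-06).

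The 300 bases around the RefSeq start (250 before to 50 after) were searched for 9 short motifs on both strands in SOX4 and SOX12, and each share is of 35116 RefSeq promoters of the same length (GRCh38.p14). The window of SOX4, chr6:21593501-21593800, lies 3′ of the GENCODE 29 start and inside its exon. It held 4 CCAAT boxes (CCAAT), where 0.991% of promoters have 4 or more, and none of the other motifs. The window of SOX12 is 80.3% G and C, that of SOX4 49.3%, and the shares are over promoters of any base content. The cut at 4 or more equals the number of CCAAT boxes in SOX4 and of GC boxes in SOX12. The window of SOX12 held 4 GC boxes (GGGCGG), where 9.06% of promoters have 4 or more. It also held 1 CCAAT box, which 34.6% of promoters hold, and 1 CRE half-site (TGACG, which is part of the full CRE), which 24.6% hold. There was also 1 octamer (ATGCAAAT), the POU factor motif, which 1.77% of promoters hold. The full CRE (TGACGTCA), the site of the cAMP-responsive factor CREB that 1.85% of promoters hold, was in neither window. Nor were SOX sites (AACAAAG, in 5.20%, and its core ACAAT, in 27.4%), a TATA box (TATAAA, in 11.5%) or a palindromic SMAD site (GTCTAGAC, in 0.202%). The part of the SOX12 window before the start is shown because the octamer and 3 of the GC boxes stand in it, in capitals with the CCAAT box and the CRE half-site, 5′ to 3′ on the plus strand.
SOX12, chr20:325302-325551: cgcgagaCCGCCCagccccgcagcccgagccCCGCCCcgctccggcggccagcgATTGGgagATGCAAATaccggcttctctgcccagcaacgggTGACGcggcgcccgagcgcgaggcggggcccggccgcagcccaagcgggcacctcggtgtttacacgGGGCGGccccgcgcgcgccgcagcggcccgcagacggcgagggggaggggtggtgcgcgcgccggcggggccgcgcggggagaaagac
The RefSeq promoters used held none for SOX11, so its promoter was not searched.

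To place the 3 courses among other genes, the genes nearest to each member were found over the 6 libraries. The measure was the root mean square difference of log2(CPM + 0.5), each gene centred on its own mean. It was taken over 10641 tested genes that averaged at least 5 CPM. Genes with a clone, LOC, LINC, antisense or similar name were left out. Nearest to SOX4 were FKBP7 (0.0342), MAFK (0.0671), ST3GAL1 (0.0742), TCF4 (0.0784) and ID3 (0.0793). FKBP7, a chaperone of the endoplasmic reticulum, stood at 20.9 CPM on day 0, 41.8 on day 2 and 88.1 on day 5, with log2 fold changes of 1.00 and 2.08 on the later days against day 0. TCF4, a basic helix-loop-helix partner of proneural factors, stood at 16.4, 37.6 and 76.6 CPM on those days.

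Nearest to SOX11 were CARD8 (0.0496), SDHAF3 (0.0664), CTSC (0.0678), SAT2 (0.0681) and FOXP1 (0.0715). Nearest to SOX12 were ARID1A (0.0459), TTYH3 (0.0465), AFG3L1P (0.0490), ZNF696 (0.0505) and ZBTB39 (0.0530). ARID1A, a subunit of the SWI/SNF chromatin remodeller, had 75.9 CPM on day 0, 58.6 on day 2 and 111.9 on day 5. Within a difference of 0.2 there were 61 genes for SOX4, 331 for SOX11 and 635 for SOX12. With 6 libraries such likeness describes a shape over 3 days and says nothing of shared control.

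The labelled cell types were set beside their markers. Of 18 pan-neuronal markers 9 were tested, of which 1 rose and 4 fell on day 2 against day 0, and 1 rose (SNAP25, log2 fold change 1.64 ± 0.13, edgeR adjusted p = 6.9e-09) and 4 fell on day 5 against day 0. Over all genes 33.4% were higher and 33.4% lower on day 2, and 35.8% higher and 34.1% lower on day 5, each against day 0. With library totals 5 of the 9 pan-neuronal markers fell on day 2. The summed pan-neuronal level was 265 to 274 CPM on day 0, 163 to 170 on day 2 and 117 to 121 on day 5. Most of this sum is TUBB3, so the sum follows that 1 gene. Of 28 neurogenic transcription factors other than SOXC, 15 had 0 counts everywhere and 2 were tested, DLX1 and ZEB1. DLX1 had 1 and 0 counts on day 0, 5 and 8 on day 2, and 24 and 29 on day 5. It was called higher on both later days than on day 0, but only its day 5 counts were enough for testing. ZEB1, also known from mesenchymal cells, rose on day 2 and fell on day 5, each against day 0. All 12 fibroblast markers were tested, with 6 higher and 6 lower on day 2 against day 0, and 4 higher and 8 lower on day 5 against day 0. These counts stand beside the same shares over all genes, and with library totals 5 were higher and 7 lower on day 2. The summed level of the fibroblast markers was 25095 to 25499 CPM on day 0, 23669 to 23936 on day 2 and 35379 to 35827 on day 5. The higher sum on day 5 was carried by a few abundant genes, with COL1A2 at 14326 CPM on day 5 against 5053 on day 0, COL3A1 at 6441 against 2543 and PDGFRA at 2641 against 334. VIM (3.31-fold), THY1 (4.10-fold), DCN (5.16-fold) and S100A4 (16.7-fold) were lower on day 5 than on day 0.

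The markers of other cell types did not share 1 course. Endothelial markers summed to 5.01 to 6.98 CPM on day 0, 9.83 to 11.8 on day 2 and 68.7 to 73.5 on day 5. KDR, a VEGF receptor, reached 61.8 ± 2.32 CPM on day 5, against 4.16 ± 0.634 CPM on day 0 (SD, n = 2 each), and CLDN5, a tight junction protein, had 145 and 136 counts on day 5 against 1 and 6 on day 0 (edgeR adjusted p = 2e-09). The third tested gene, VWF, was not called with TMM scaling and was called lower on both later days with library totals, while PECAM1 had at most 9 counts and CDH5 at most 1 count in any library. Schwann and glial markers summed to 8.44 to 9.28 CPM on day 0, 13.0 to 13.1 on day 2 and 18.8 to 21.9 on day 5, with AQP4 at 0 throughout. Melanocyte markers summed to 1.75 to 2.09 CPM on day 0, 6.54 to 8.11 on day 2 and 7.497 to 9.61 on day 5, nearly all of it PMEL, which was called higher on day 2 than on day 0 (edgeR adjusted p = 8.1e-08), with TYR at 0.

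Keratinocyte markers summed to 17.6 to 18.6 CPM on day 0, 17.7 to 19.6 on day 2 and 35.3 to 37.3 on day 5. This was nearly all KRT10, while KRT5, KRT14 and KRT1 were at 0. Leukocyte markers were highest on day 2, with 96.7 to 98.3 CPM on day 0, 132.1 to 133.5 on day 2 and 45.5 to 49.7 on day 5. Of the 2 that were tested, CD68, a lysosomal protein of macrophages and other cells, was 1.37-fold higher on day 2 than on day 0 (edgeR adjusted p = 4.1e-08) and 2.72-fold lower on day 5 than on day 2 (edgeR adjusted p = 4e-14). CD14, a coreceptor of bacterial lipopolysaccharide, was 12.5-fold lower on day 5 than on day 2 (edgeR adjusted p = 4.9e-08), and CD3E was at 0. The part of these markers in the SOXC levels was not tested.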

How the data were processed

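Gene-level expected counts of 6 RNA libraries (TruSeq RNA kit) were deposited by the authors, not scaled between samples. Per the submitters' processing notes, the reads were placed on GRCh38. Not given in the sources used here were the aligner, the counter, the annotation release and the strand setting. Values were rounded to whole numbers (87.2% already were). The 172 unnamed rows, 0.0356 to 0.0475% of counts, were left out, leaving 17599504 to 27941919 counts per library. Where 76 symbols stood for several genes, the gene of highest mean kept the symbol. Replicates differed by more than sampling noise (chi-square per gene 2.31 to 2.43). All libraries entered one fit by day in R 4.3.3 and edgeR 4.0.16, after filterByExpr (minimum count 10, minimum total 15) and TMM scaling, for the quasi-likelihood test with 3 residual degrees of freedom. Benjamini-Hochberg adjustment ran over 16327 genes, with calls at an adjusted p under 0.05, two-sided. The SE is the log2 fold change over the square root of F. The common coefficient of biological variation was 3.33%. Floors cover counting error only. Lengths are GENCODE 29 exon unions, and promoters are from RefSeq.

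The members, the 13 gene lists, the comparisons and the tests were chosen with earlier results of these data known. From the lists, genes of lowest adjusted p were named, with TUBB3, MAP2, DCX, TEAD2 and SDCBP in any case, besides the tested neighbours within 500 kb and the 5 genes nearest to each member. STMN2, SNAP25, EZH2, GDF5, DBN1, STMN1 and single cell type markers were named after their values were seen. The octamer was added to the motifs after the SOX12 sequence was seen. Alternatives were DESeq2 1.42.0, limma-voom (limma 3.58.1), other scalings and filters, fits of 2 days, a replicate block, an assumed variation of 20% and leaving out each library. The fitting code was checked on simulated counts. Replicate numbers did not pair the libraries. Shared numbers across days correlated at 0.03 to 0.06. The results of some genes and sequences are not reported here.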

Additional observations from a re-analysis of the deposited data

How the results depend on the processing

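SOX4 in all 3 comparisons, SOX11 in both with day 5 and SOX12 on day 5 against day 2 kept direction and call in all 15 alternatives. With an assumed variation of 20%, calls fell to 5495 on day 2 against day 0, 6785 on day 5 against day 0 and 5676 on day 5 against day 2, against 10912, 11405 and 10746. Under it the log2 fold changes of SOX11 (0.33, edgeR adjusted p = 0.419) and SOX12 (-0.37, edgeR adjusted p = 0.349) on day 2 against day 0 and of SOX12 on day 5 against day 0 (0.57, edgeR adjusted p = 0.104) were not called. SOX11 on day 2 against day 0 was also not called with library totals (0.15, edgeR adjusted p = 0.261), and leaving out each library gave 0.23 to 0.43.

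Above 2-fold, SOX11 on day 5 against day 0 was not called with RLE factors (1.19, edgeR adjusted p = 0.0714), library totals (1.01, 0.685), no filter (1.17, 0.164) or a fit of 2 days (1.20, 0.0551). Leaving out each library gave 1.11 to 1.31, and it was not called without day 0 replicate 2 (edgeR adjusted p = 0.312) and without either day 5 library (0.0572 and 0.162). SOX4 above 2-fold on day 5 against day 2 was not called with RLE factors (1.06, edgeR adjusted p = 0.0666), library totals (1.05, 0.0967) or no filter (1.03, 0.392). Leaving out each library gave 1.05 to 1.08, and it was not called without day 2 replicate 2 (edgeR adjusted p = 0.222) and without either day 5 library (0.113 and 0.0504). The causes were not tested.

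Library totals moved the median gene by -0.18 on the log2 scale on day 2 and -0.21 on day 5 against day 0, and 38.1% and 39.0% of calls were then higher, against 50.01% and 51.2%. With the replicate block no call of a member changed, and the calls over all genes numbered 10806, 11297 and 10642 in the 3 comparisons. The log2 ratio of SOX4 to SOX11 on raw counts was 3.33 on day 0, 4.04 on day 2 and 4.22 on day 5, and with the length as deposited 4.22, 4.92 and 5.11. That of SOX12 to SOX4 was -1.04, -2.43 and -2.57 on raw counts and -0.97, -2.36 and -2.50 with the length as deposited, an alternative chosen after seeing the data. Both constructions change the length divided by and shift all days alike. Leaving out 1 library gave 3.83 to 3.98, 4.55 to 4.68 and 4.75 to 4.84 for SOX4 to SOX11 on day 0, day 2 and day 5, and -0.83 to -0.57, -2.12 to -2.07 and -2.23 to -2.23 for SOX12 to SOX4. SOX11, at 262 to 424 counts, is the member that depth limits most.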
